A study of Mus musculus with 214 samples.

Results

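The genes described here are the 10 whose products carry tryptophan to NAD in liver, or that act beside that route: Acmsd, Tdo2, Ido2, Afmid, Kmo, Kynu, Haao, Qprt, Nampt and Nnmt. They were taken by symbol from the 18647 genes measured in WT livers and the 19540 measured in Mgmt-/- livers, and all 10 passed the filter on low values in every comparison. The set was chosen by pathway and with the measured change of Acmsd after N-nitrosodimethylamine (NDMA) already known. That change is therefore given as a description with no test. The counts of calls for NDMA, and for its difference by genotype or sex, are over the other 9 genes. Counts by age and between males and females are over all 10. Libraries were selected on Kap, as described below.

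The livers came from C57BL6 mice that all carried the RaDR+/+;GPT+/+ reporters of recombination and mutation; WT mice had no further change, and Mgmt-/- mice lacked in every cell the methyltransferase that repairs O6-methylguanine. Mice of both sexes were injected intraperitoneally with NDMA, an alkylating carcinogen activated in liver, at 3.5 mg/kg on postnatal day 8 and 7 mg/kg on postnatal day 15, or with saline, and livers were collected 1, 2 and 5 days, 10 weeks and 10 months after the second dose. The groups, NDMA then saline, held 26 and 21 WT libraries on day 1, 8 and 8 on day 2, 8 and 7 on day 5, and 8 and 8 at week 10. Month 10 had 13 and 10. For Mgmt-/- the 5 times held 12 and 12, 8 and 7, 8 and 6, 8 and 8, and 13 and 12. Each litter was given 1 treatment, so litter and treatment cannot be told apart. Depth was 150038 to 4791649 reads in WT libraries (median 1700410) and 713584 to 7740710 in Mgmt-/- libraries (median 2306710). Values are normalized counts, the reads of a gene divided by the size factor of its library, and each genotype was normalized by itself. Mgmt itself was 13.0 to 130 normalized counts in the WT libraries and 0 to 9.67 in the Mgmt-/- libraries, with no overlap.

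A few libraries stood apart. In 2 Mgmt-/- saline libraries of day 5, Kap, a kidney androgen-regulated protein, was 6147 and 7562 normalized counts, against at most 13.9 in the other Mgmt-/- libraries and 9.93 in WT. Acmsd, which is abundant in kidney, was 164 and 118 in them, while Tdo2, a gene of hepatocytes, was 6.69 and 4.36 and Ido2 was 0. These 2 were left out by a limit of 1000 on Kap, and day 5 values of the pathway genes with them are given where the calls of that time are described. In 2 WT NDMA libraries of day 1 the sex genes went against the label, and 4 WT NDMA libraries had fewer than 300000 reads. Liver identity held in the rest: albumin and 4 other hepatocyte transcripts had a mean of at least 15874 normalized counts in each WT library and 17200 in each Mgmt-/- library.

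In the liver most tryptophan is degraded along the kynurenine pathway. Tdo2 (and, in other settings, Ido1 and Ido2) opens the ring of tryptophan, Afmid removes the formyl group, and Kmo, Kynu and Haao carry kynurenine to aminocarboxymuconate semialdehyde (ACMS). There the route forks: ACMS closes by itself to quinolinate, which Qprt turns into the precursor of NAD, or Acmsd, the decarboxylase, takes it away to the glutarate branch and so withholds it from NAD. Nampt makes NAD by salvage of nicotinamide, and Nnmt methylates nicotinamide, which removes it from salvage.

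The stretches just upstream of Haao and Afmid are shown because both genes fell after NDMA in Mgmt-/- livers on days 1, 2 and 5. They are the 250 bases before the RefSeq start on the coding strand of GRCm38.p6, and 6 of the 10 genes were searched in this way. Capitals mark AGGTCA, the core of sites for nuclear receptors such as PPAR alpha, or its reverse complement TGACCT, and GTTAAT, the core of sites for HNF1, or its reverse complement ATTAAC.
Haao: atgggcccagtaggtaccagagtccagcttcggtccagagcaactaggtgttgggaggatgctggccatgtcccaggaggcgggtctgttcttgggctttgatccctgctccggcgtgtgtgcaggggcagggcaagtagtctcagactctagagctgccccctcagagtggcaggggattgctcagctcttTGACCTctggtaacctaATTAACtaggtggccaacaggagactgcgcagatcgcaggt
Afmid: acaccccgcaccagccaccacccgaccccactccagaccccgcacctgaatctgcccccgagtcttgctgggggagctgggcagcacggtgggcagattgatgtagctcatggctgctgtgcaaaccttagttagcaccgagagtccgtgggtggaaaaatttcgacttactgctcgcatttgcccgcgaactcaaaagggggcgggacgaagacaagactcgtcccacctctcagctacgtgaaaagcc
The Haao window is chr17:83846791-83847040 on the minus strand, which lies inside the gene as annotated by GENCODE, since RefSeq starts it further in, and the Afmid window chr11:117825669-117825918 on the plus strand. AGGTCA on either strand lay at -58 to -53 of Haao and was also in the Nampt and Tdo2 windows, and 14.0% of 32851 promoter windows of this length held it. GTTAAT on either strand lay at -41 to -36 of Haao, and 6.43% of windows held it. Neither was found in the Afmid window, which was rich in CpG (15, with 59.6% GC, against medians of 6 and 52.4% over all windows). A match of letters is a description and not a binding site. Of the other motifs searched on both strands, TTCNNNGAA (STAT, 7.02% of windows) and TGACNNNGC (antioxidant response, 10.2%) were in the Qprt window and TATAAA (12.4%) in that of Tdo2. TTGCNNAA (C/EBP, 9.56%) and CAAAGTCCA (HNF4, 0.384%) were in none of the 6.

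Acmsd, a plus-strand gene at chr1:127729413-127767978 (GRCm38), was higher after NDMA in Mgmt-/- livers at each of the 5 times. On day 1 the lowest, median and highest Mgmt-/- NDMA livers had 24.5, 55.4 and 102 normalized counts, and the saline livers 4.93, 13.8 and 28.8. NDMA livers lay above all saline livers in 11 of 12, and the mean was 3.95 times that of saline (57.8 ± 19.7 against 14.6 ± 8.40, SD). On day 2 the groups did not overlap, with 47.8, 65.6 and 87.6 after NDMA and 14.4, 17.7 and 38.7 after saline. On day 5 the values were 37.7, 85.2 and 147 after NDMA against 16.2, 19.2 and 41.0, and 7 of 8 NDMA livers lay above all saline livers. The widest spread among saline livers came at week 10, from 2.80 through 21.7 to 59.2, and NDMA livers had 51.1, 80.3 and 120 there. By month 10 the groups overlapped more, at 18.0, 37.1 and 74.0 after NDMA and 4.43, 18.4 and 40.1 after saline, with 6 of 13 NDMA livers above all saline livers.

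In the model with sex and batch (a code in the labels, with no word there on what it marks) as terms, the log2 fold change of Acmsd in Mgmt-/- livers was 2.05 ± 0.23 (SE) on day 1, 1.61 ± 0.20 on day 2, 1.95 ± 0.22 on day 5 (1.28 ± 0.48 with the 2 libraries of high Kap kept), 2.08 ± 0.46 at week 10 and 1.14 ± 0.26 at month 10. It held in both sexes taken alone, from 0.79 in males of month 10 to 2.37 in males of day 1. Both batches of day 1 showed it, at 1.88 and 2.38.

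In WT livers Acmsd was high after NDMA mainly on day 1. The lowest, median and highest NDMA livers had 6.99, 38.2 and 196 normalized counts and the saline livers 1.98, 12.7 and 33.5, and 16 of 26 NDMA livers lay above all saline livers. The log2 fold change was 1.56 ± 0.27, and 1.44 ± 0.24 without the liver of 196. It differed among the 3 batches of that day, at 2.45, 0.60 and 1.35. From day 2 to month 10 the WT groups overlapped, with log2 fold changes of 0.40 ± 0.25, 0.47 ± 0.29, 0.54 ± 0.25 and 0.57 ± 0.40. At month 10 1 saline liver was at 0, and without it the change was 0.11 ± 0.22. Mgmt-/- minus WT, the response differed by 0.23 on day 1, 1.11 on day 2, 1.64 on day 5, 1.12 at week 10 and 0.81 at month 10 (edgeR on reads, log2, no test). By limma it was 0.48 ± 0.42, 1.21 ± 0.33, 1.48 ± 0.38, 1.54 ± 0.55 and 0.61 ± 0.48. The Acmsd plot by library shows every value.

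**Figure D1:**
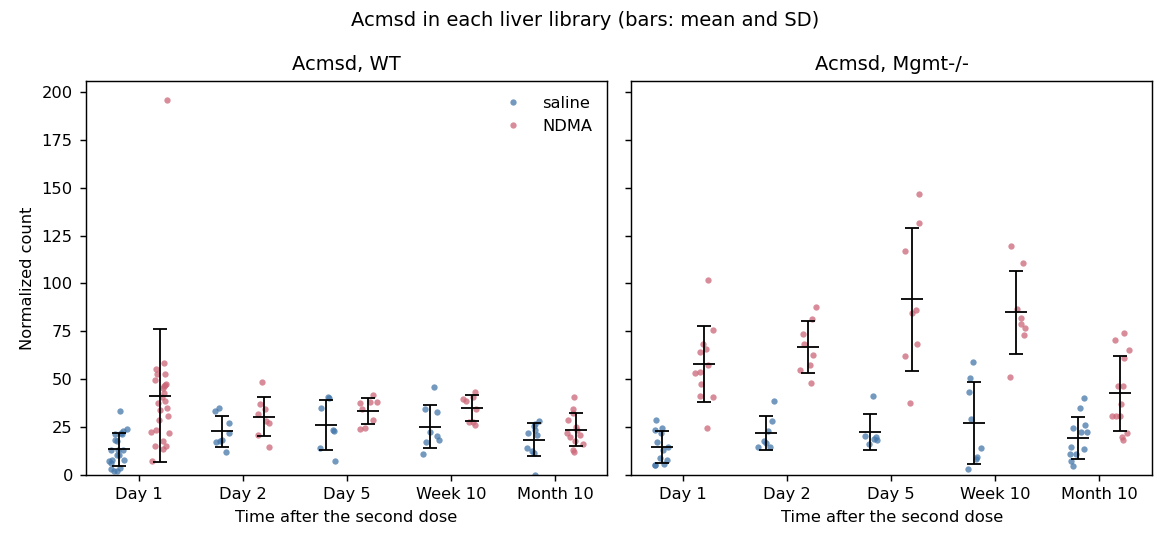
Acmsd in normalized counts in each liver library, by genotype, time and treatment; points are libraries and bars are group means with SD. Of the Mgmt-/- livers 8 of 8 NDMA libraries lie above all saline libraries on day 2, 7 of 8 on day 5 and at week 10, and 6 of 13 at month 10.

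A second gene covers the same stretch of DNA. 2900009J06Rik, on the opposite strand, overlaps Acmsd by 14363 bases that include the last 1000 of Acmsd, where 3′ libraries take their reads. It was counted apart, at means of 19.7 normalized counts after NDMA and 3.54 after saline in Mgmt-/- livers on day 1, and 8.89 against 2.03 on day 2. The ratio of its means was 3.37, 2.40 and 3.91 on day 5, week 10 and month 10. In WT livers it was 2.71, 2.32, 2.59, 1.06 and 1.96 over the 5 times. The ratio of means of Acmsd was 1.33 and 1.28 in WT livers on days 2 and 5. Whether the counting used strand is not given in the sources used here, so reads of the 2 genes may not be fully separated and the Acmsd values are uncertain to that extent.

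The 5 genes whose NDMA changes were nearest to those of Acmsd over all 10 comparisons, out of 4844 genes with a mean of at least 20, were Cd9, Tagln, Tnfrsf12a, Anxa1 and Aaas. Their mean absolute difference from it was 0.30, 0.34, 0.37, 0.37 and 0.38 on the log2 scale. Cd9 encodes a tetraspanin of the cell surface, Tagln the smooth muscle protein transgelin, Tnfrsf12a the TWEAK receptor, Anxa1 annexin A1 and Aaas a nuclear pore protein. Nnmt was the member nearest to it among those 4844 genes, at place 130 (0.68).

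Among the other 9 genes, Afmid and Haao were lower and Nnmt higher in Mgmt-/- livers from day 1 to day 5. A gene was called where limma gave an adjusted p under 0.05 and the log2 fold change passed 0.58 in either direction. By that rule, 1 of the 9 was higher and 2 were lower on day 1 in Mgmt-/- livers, where 9.06% of all genes tested were higher and 8.64% lower. On day 2 it was 2 higher and 2 lower (all genes, 12.4% and 7.5%), on day 5 3 higher and 2 lower (11.1% and 6.71%), at week 10 none higher and 2 lower (7.27% and 3.88%; 1 and 2 with all libraries scaled to equal totals), and at month 10 none (7.74% in either direction). No test sets these counts against the background. The median log2 fold change of the 9 was -0.07, -0.15, -0.01, -0.20 and -0.16 over the 5 times, and that of all genes 0.02, 0.03, 0.03, 0.04 and -0.01. The 0 at month 10 came with 3 of 9 genes at an unadjusted p under 0.05 in limma, and edgeR and DESeq2 called none either. Day 5 rests on leaving out the 2 libraries with kidney transcripts: with them kept, 1 of the 9 was called, and the log2 fold change of Haao was 0.03 in place of -0.95 and that of Afmid -0.52 in place of -1.10. Tdo2 was then 2.42 ± 1.36 in place of 0.39 ± 0.13, Nnmt 2.88 ± 0.94 in place of 1.53, Kmo 1.16 ± 0.37 in place of 0.59 and Ido2 1.05 ± 0.69 in place of -0.01. Kynu and Qprt, called neither way, went from -0.08 to 0.45 and from -0.25 to 0.22. The call was lost for Nnmt and Kmo (adjusted p = 0.064 and 0.058) and held for Nampt (0.58 ± 0.12, 0.00289).

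In WT livers 1 of the 9 was higher and 1 lower on day 1 (all genes, 5.01% and 4.19%), and 1 higher and none lower on day 2 (3.33% and 2.91%). None was called by limma, edgeR or DESeq2 on day 5 (all genes by limma, 3.61% in either direction), week 10 (0.0249%) or month 10 (0%). Unadjusted p under 0.05 was reached by 3, 0 and 1 of the 9 at those times in limma. The median log2 fold change of the 9 was 0.17, -0.17, -0.23, 0.03 and -0.03, against -0.03, -0.08, -0.07, -0.03 and -0.06 for all genes.

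**Figure D2:**
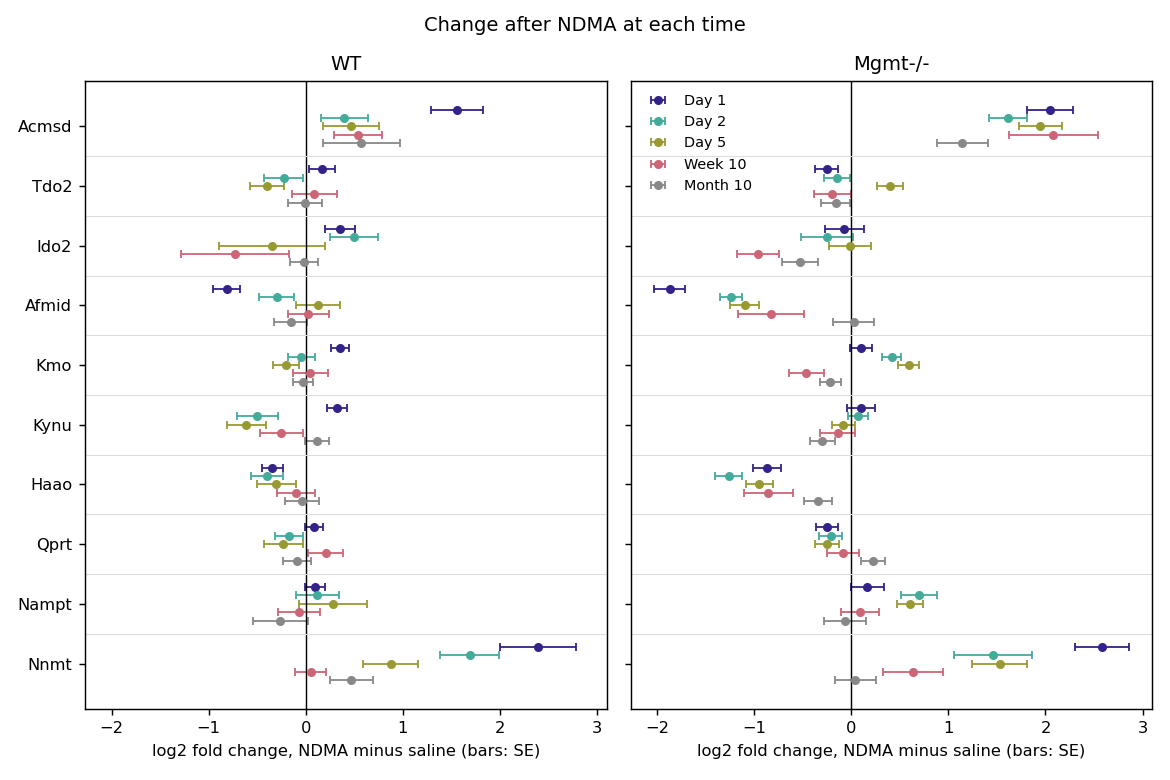
Log2 fold change of NDMA against saline (points, with the SE as bars) of the 10 genes at each time after the second dose, for WT and Mgmt-/- livers. Acmsd and Nnmt lie above 0 and Afmid and Haao below 0 in Mgmt-/- livers on days 1, 2 and 5, and Qprt stays between -0.25 and 0.22.

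Afmid, the formamidase of the second step (chr11:117825924-117839908, plus strand), had the largest fall of the 9 on day 1. The lowest, median and highest Mgmt-/- NDMA livers of day 1 had 75.1, 130 and 307 normalized counts, and the saline livers 350, 528 and 643. No NDMA liver reached a saline liver on day 1, 2 or 5. The log2 fold change was -1.87 ± 0.16 on day 1 (adjusted p = 1.54e-11), -1.24 ± 0.11 on day 2 (3.95e-09) and -1.10 ± 0.15 on day 5 (5.22e-06). On day 2 the values were 168, 219 and 279 against 387, 554 and 666, and on day 5 136, 248 and 308 against 370, 488 and 668. The mean after NDMA was 29.0% of saline on day 1, 41.5% on day 2 and 47.0% on day 5. At week 10 it missed the threshold (-0.83 ± 0.34, adjusted p = 0.128), and at month 10 it was 0.02 ± 0.21. In WT livers it fell on day 1, from 118, 309 and 502 in saline to a median of 169 after NDMA (lowest 82.2), with overlapping groups (-0.81 ± 0.14, adjusted p = 7.76e-06).

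The difference between the genotypes in this fall was tested itself. The log2 response in Mgmt-/- livers minus that in WT livers was -1.08 on day 1, -0.89 on day 2 and -1.18 on day 5 (edgeR, adjusted p = 0.0319, 0.0035 and 0.00728). Afmid shares its 3′ end with Gm20708, an annotated gene on the same strand that has no values of its own here, and 169 of its bases, away from the 3′ end, overlap Tk1, a cell cycle gene on the other strand. Tk1 had a mean of 63.5 normalized counts after NDMA and 104 after saline in Mgmt-/- livers on day 1, and its part in the Afmid values was not tested.

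Haao, the dioxygenase that makes ACMS (chr17:83831156-83847963, minus strand), fell at 4 of 5 times in Mgmt-/- livers. On day 2 the lowest, median and highest NDMA livers had 197, 299 and 340 normalized counts and the saline livers 500, 724 and 883. The groups were also apart on day 5, at 295, 419 and 528 against 617, 823 and 1182, and overlapped on day 1, at 158, 295 and 471 against 376, 507 and 734. The log2 fold change was -0.87 ± 0.15 on day 1 (adjusted p = 1.59e-05), -1.26 ± 0.14 on day 2 (6.62e-08), -0.95 ± 0.14 on day 5 (1.37e-05) and -0.85 ± 0.25 at week 10 (0.0251). At month 10 it was -0.34 ± 0.14 (adjusted p = 0.125). In WT livers it was -0.34 ± 0.11 on day 1, past the adjusted p (0.02) and short of the fold, and -0.40 ± 0.17 on day 2 (0.167; -0.54 without the library of fewest reads, 0.0014). On day 2 the response was lower in Mgmt-/- than in WT livers (edgeR log2 difference -0.86, adjusted p = 0.00675).

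Nnmt, the methyltransferase of nicotinamide (chr9:48591877-48605153, minus strand), rose in both genotypes. In Mgmt-/- livers on day 1 the lowest, median and highest values were 483, 748 and 1031 normalized counts after NDMA and 21.7, 129 and 331 after saline, so the groups did not overlap. The log2 fold change was 2.58 ± 0.28 (adjusted p = 2.06e-07), then 1.46 ± 0.40 on day 2 (0.0164) and 1.53 ± 0.28 on day 5 (0.00132). In WT livers on day 1 the values were 66.4, 484 and 1411 against 4.90, 114 and 285, with overlap, and a log2 fold change of 2.39 ± 0.39 (adjusted p = 8.61e-06). It was 3.40, 1.10 and 2.16 in the 3 batches of that day taken alone. The WT rise was 1.69 ± 0.31 on day 2 (adjusted p = 0.00271), and 0.88 ± 0.29 on day 5 missed the threshold (0.0944). The difference in response between the genotypes did not pass the test at any time, and on day 1 it was 0.18 (edgeR adjusted p = 0.946; by limma 0.18 ± 0.57). From week 10 on the change was 0.64 ± 0.31 and 0.04 ± 0.21 in Mgmt-/- and 0.05 ± 0.16 and 0.47 ± 0.22 in WT livers, none of them called.

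**Figure D3:**
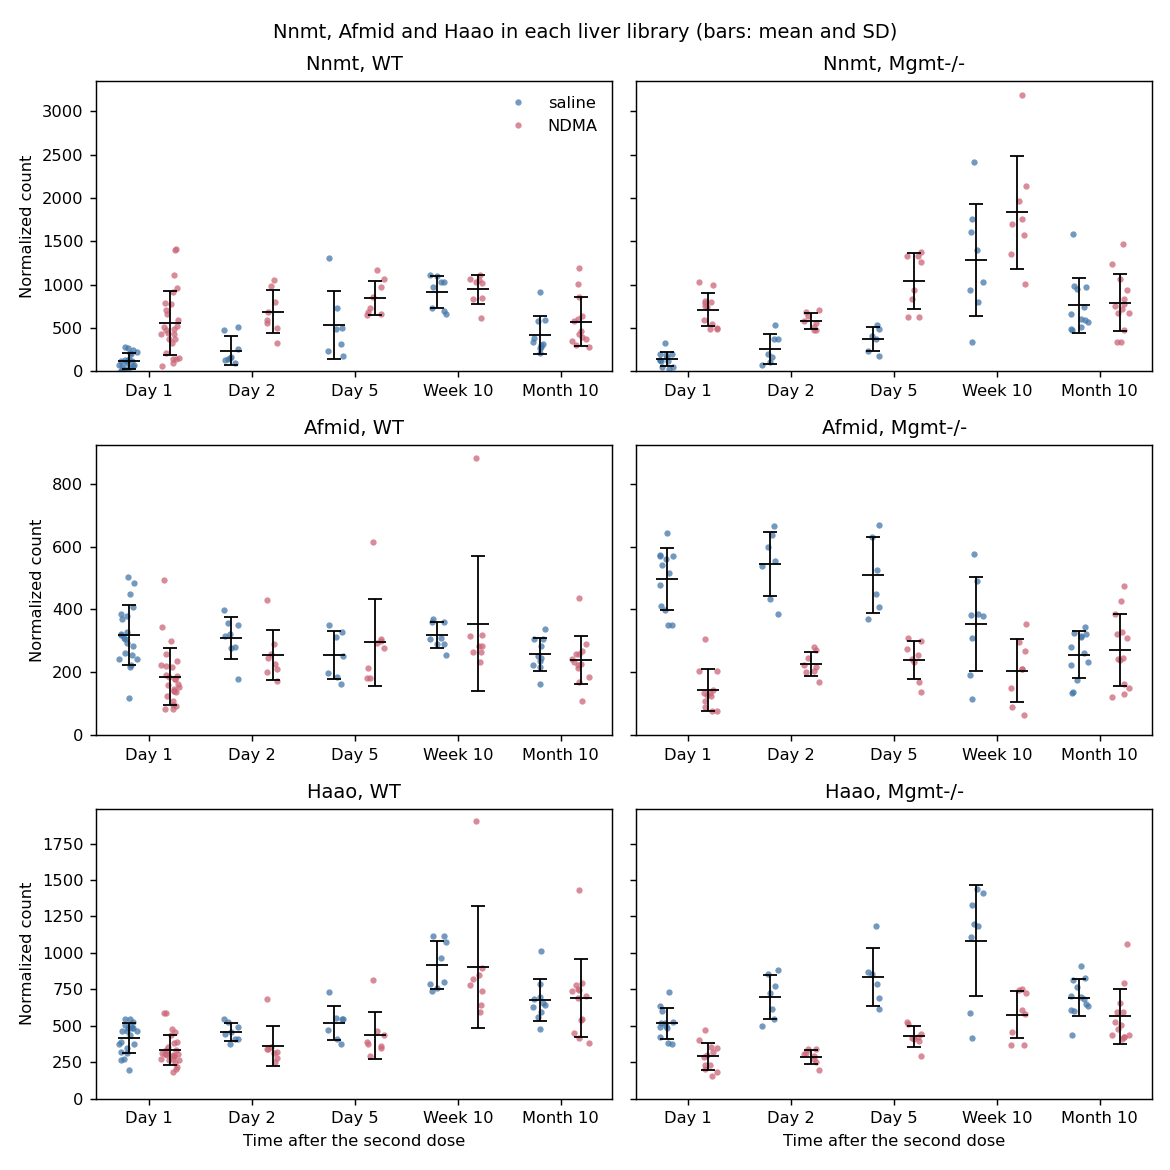
Nnmt, Afmid and Haao in normalized counts in each library at each time, by genotype and treatment; points are libraries and bars are group means with SD. The Mgmt-/- groups are apart for Afmid on days 1, 2 and 5, for Haao on days 2 and 5, and for Nnmt on days 1 and 5.

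Nampt and Kmo were first called after day 1. Nampt, the salvage enzyme (chr12:32819545-32853349, plus strand), had 89.0, 99.5 and 121 normalized counts (lowest, median, highest) after NDMA and 55.8, 69.2 and 75.8 after saline in Mgmt-/- livers on day 5, with no overlap. Its log2 fold change was 0.70 ± 0.18 on day 2 (adjusted p = 0.00521) and 0.60 ± 0.13 on day 5 (0.00108). Kmo, the monooxygenase of kynurenine (chr1:175620381-175662116, plus strand), had 481, 642 and 729 against 361, 416 and 450 on day 5, also with no overlap. Its change was 0.59 ± 0.11 (adjusted p = 0.000345). Short of the fold, Kmo passed the adjusted p in Mgmt-/- livers on day 2 (0.41 ± 0.10, 0.00262) and in WT livers on day 1 (0.35 ± 0.09, 0.00315). Both folds of day 5 lie close to the limit of 0.58 and fell short of it with edgeR and with DESeq2, at 0.57 and 0.56 for Kmo and 0.578 and 0.56 for Nampt. The response of Kmo on day 5 was higher in Mgmt-/- than in WT livers (edgeR log2 difference 0.85, adjusted p = 0.00628), as the WT values were 238, 246 and 284 after NDMA and 215, 299 and 346 after saline.

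Ido2, an indoleamine dioxygenase (chr8:24531892-24576333, minus strand), was lower after NDMA at week 10 in Mgmt-/- livers. The NDMA livers had 15.9, 29.2 and 34.3 normalized counts (lowest, median, highest) and the saline livers 36.4, 53.1 and 86.6, and the groups did not overlap (-0.96 ± 0.21, adjusted p = 0.00319). At month 10 it was -0.53 ± 0.18 (adjusted p = 0.0642). Ido1, its paralog, was at 0 in 111 of 117 WT libraries and in 78 of the 94 Mgmt-/- libraries used. Every Mgmt-/- saline library used was at 0, so its reads there were all in NDMA livers. The highest was 2.795 normalized counts, on day 5, where the NDMA median was 0.821. In WT livers reads were seen after both treatments. The depth allows no statement on the size of a change, and none was tested.

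Tdo2, the first enzyme (chr3:81957090-81976202, minus strand), was called at no time. In Mgmt-/- livers it went from -0.26 ± 0.12 on day 1 to 0.39 ± 0.13 on day 5 (adjusted p = 0.0328, short of the fold). In WT livers it was -0.40 ± 0.17 on day 5 (0.221), and the difference in response passed the test by edgeR (0.85, adjusted p = 0.0343) and not by limma (0.79, 0.0579). Kynu, the hydrolase (chr2:43555329-43682715, plus strand), was 0.32 ± 0.10 on day 1 in WT livers (adjusted p = 0.0177, short of the fold) and -0.61 ± 0.20 on day 5 (0.0919). Qprt (chr7:127107114-127122226, minus strand), which turns quinolinate into the NAD precursor, ranged from -0.25 to 0.22 over the 10 comparisons, and no call was made.

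The difference in response between the genotypes was called for 1 of the 9 genes on day 1, 2 on day 2 and 3 on day 5 (edgeR, adjusted p under 0.05). All genes tested gave 0.81%, 8.47% and 2.9% at those times, 5.71% at week 10 and 1.32% at month 10. None of the 9 was called at week 10 or month 10, where edgeR gave 3 and 2 genes at an unadjusted p under 0.05 and limma gave 1 and 2, also with none called. On days 2 and 5 and week 10 the genotypes shared no batch, and each response was taken within its own batches. Neither the levels nor the responses of the genotypes can be told apart from the batches at those times.

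The transcripts of Acmsd and Qprt can also be compared within 1 library, as the log2 level of Acmsd minus that of Qprt. The split of ACMS between its routes was not measured here. In the difference the scaling of the library cancels except through the added 1. Only the shift of this difference between groups has a meaning here. Among Mgmt-/- livers the mean was -0.94 ± 0.50 (SD) after NDMA and -3.24 ± 0.92 after saline on day 1, and -0.62 ± 0.36 against -2.48 on day 2. The groups did not overlap on days 2 and 5 or at week 10, where the shifts were 1.85, 2.20 and 2.17. On day 1 the groups overlapped, and at month 10 they did too, with means of -2.34 and -3.27. In WT livers the means of day 1 were -1.76 and -3.20, with overlap. Against Haao, which feeds the branch point and fell in Mgmt-/- livers, the shift of Acmsd was 2.92 on day 1, 2.89 on day 2, 2.90 on day 5 and 2.94 at week 10, and the groups were apart at all 4 of these times. At month 10 it was 1.51, with overlap. In WT livers the shift against Haao was 1.92 on day 1 and 0.64 to 0.80 later, with overlap at every time. Since the Acmsd change was known beforehand, these differences are a description.

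**Figure D4:**
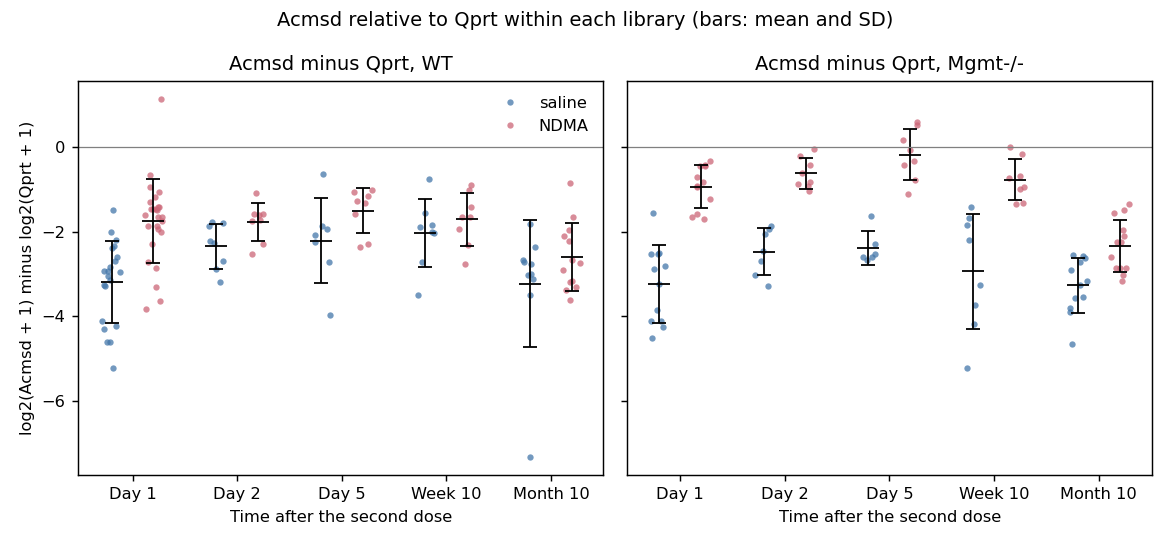
Log2 level of Acmsd minus log2 level of Qprt in each library, by time, genotype and treatment; points are libraries and bars are group means with SD. The Mgmt-/- NDMA libraries lie above all saline libraries on days 2 and 5 and at week 10, and the WT groups overlap at every time.

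Genes beside the route moved in part. In the glutarate branch, into which Acmsd leads, 3 of 3 genes were lower on day 1 in Mgmt-/- livers, where 8.64% of all genes were: Dhtkd1 (-1.22 ± 0.19, adjusted p = 5.82e-06), the glutaryl-CoA dehydrogenase Gcdh (-0.82 ± 0.11, 3.34e-07) and Aldh8a1 (-0.64 ± 0.12, 8.80e-05), which oxidizes the product of Acmsd. None of the 3 was called on day 2 or 5, and Gcdh alone was lower at week 10 (-0.59 ± 0.16, adjusted p = 0.0172). The median of the branch on day 1 was -0.82 (all genes, 0.02), and -0.37 in WT livers (all genes, -0.03) with none called. Of 4 kynurenine aminotransferases, Aadat (-1.06 ± 0.17, adjusted p = 6.90e-06) and Kyat3 (-0.72 ± 0.15, 0.000251) were lower on day 1, and Kyat1 was lower on day 5 (-0.84 ± 0.17, 0.000591; all genes, 6.71% lower) and week 10 (-0.90 ± 0.17, 0.000784; all genes, 3.88%). Kyat1 was also lower in WT livers on day 5 (-1.08 ± 0.27, adjusted p = 0.031), where 1.39% of all genes were lower. It was the only call among the 4 in that genotype.

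Among 9 other genes of NAD synthesis tested in Mgmt-/- livers on day 1, 0 were higher and 3 lower (all genes, 9.06% and 8.64%). These were Naprt, which uses nicotinic acid (-0.95 ± 0.17, adjusted p = 5.57e-05), the transhydrogenase Nnt (-0.84 ± 0.15, 3.00e-05) and Nmnat3 (-0.72 ± 0.25, 0.0276). Naprt was still lower on day 2 (-0.73 ± 0.18, adjusted p = 0.0033), and of the rest Nadk2, a mitochondrial NAD kinase, was lower on day 5 (-0.82 ± 0.26, 0.0244) and month 10 (-1.01 ± 0.22, 0.00308). In WT livers 2 of 9 tested, Nmnat3 (-0.80 ± 0.23, adjusted p = 0.00892) and Nnt (-0.69 ± 0.10, 1.36e-07), were lower on day 1 (all genes, 4.19%), Nnt was lower on day 2 (-1.005 ± 0.271, 0.0273; all genes, 2.91%), and none was called later.

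Enzymes that consume NAD went both ways. Of 16 tested in Mgmt-/- livers, 5 were higher and 3 lower on day 1 (all genes, 9.06% and 8.64%), 5 and 2 on day 2 (12.4% and 7.5%), and 7 and 2 on day 5 (11.1% and 6.71%). The genes that rose on day 1 were ADP-ribosyltransferases: Parp11 (1.99 ± 0.24, adjusted p = 2.68e-08), Parp3 (1.28 ± 0.25, 0.00011), Parp14 (1.04 ± 0.25, 0.00228), Parp16 (0.72 ± 0.17, 0.00158) and Parp12 (0.68 ± 0.22, 0.023). Parp1, the main polymerase that senses strand breaks, was lower on day 5 (-0.75 ± 0.20, adjusted p = 0.00833). Cd38, the glycohydrolase, rose on day 2 (1.01 ± 0.15, 6.49e-06), day 5 (0.79 ± 0.13, 8.48e-05) and week 10 (1.02 ± 0.25, 0.00744). At week 10 Cd38 was the only 1 of 16 called higher, and 1 was called lower (all genes, 7.27% and 3.88%). The sirtuins Sirt7, Sirt2 and Sirt3 were lower on day 1, at -0.95 ± 0.21, -0.70 ± 0.15 and -0.69 ± 0.14 (adjusted p = 0.000586, 0.000459 and 0.000173). In WT livers 3 of 15 were higher and none lower on day 1 (all genes, 5.01% and 4.19%), and 1 of 13 was higher on day 2 (3.33%). The median of the Mgmt-/- list was 0.23, 0.40 and 0.52 on days 1, 2 and 5, against 0.02, 0.03 and 0.03 for all genes.

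Downstream of Nnmt, the aldehyde oxidase Aox3, which clears methylnicotinamide, was lower on day 1 (-1.42 ± 0.15, adjusted p = 1.98e-09) and day 2 (-0.997 ± 0.215, 0.00175) in Mgmt-/- livers, and Aox1 was higher on day 5 (1.19 ± 0.24, 0.000567). In WT livers both were called on day 1 and at no later time, Aox3 as lower (-0.67 ± 0.11, adjusted p = 8.06e-06) and Aox1 as higher (0.67 ± 0.22, 0.0218). At the entry of tryptophan, Slc3a2 was higher (0.64 ± 0.15, adjusted p = 0.00115) and the aromatic amino acid carrier Slc16a10 lower (-0.77 ± 0.18, 0.000969) on day 1 in Mgmt-/- livers, of 3 genes tested (all genes, 9.06% higher and 8.64% lower). Slc3a2 was higher again at week 10 (0.87 ± 0.26, adjusted p = 0.0303), and Slc16a10 was lower in WT livers on day 1 (-0.81 ± 0.23, 0.00815). Among 8 regulators, where the all-gene shares lower were 8.64%, 7.5% and 3.88% on days 1 and 2 and at week 10, Ppara was lower on day 1 (-0.62 ± 0.13, adjusted p = 0.000322), day 2 (-0.61 ± 0.13, 0.000811) and week 10 (-0.96 ± 0.21, 0.00313) in Mgmt-/- livers. Cebpb was higher on day 5 (0.93 ± 0.33, adjusted p = 0.0442, all genes 11.1%) and Cebpa lower at week 10 (-0.59 ± 0.19, 0.0495). None of the 8 was called in WT livers, where 5.01% of all genes were higher and 4.19% lower on day 1, and fewer later. The glucocorticoid targets Fkbp5 and Tsc22d3 were lower on day 1 (-1.01 ± 0.16 and -0.79 ± 0.18, adjusted p = 9.26e-06 and 0.00125), 2 of 4 tested (all genes, 8.64% lower). Both were lower again on day 2 (2 of 3 tested; 7.5%) and Tsc22d3 on day 5 (1 of 4; 6.71%), and Fkbp5 was lower in WT livers on day 1 (-0.72 ± 0.16, adjusted p = 0.000397; all genes, 4.19%).

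The PPAR alpha targets of Mgmt-/- livers fell in 2 of 6 on day 1 (all genes, 8.64% lower) and rose in 2 of 5 on day 2 (12.4% higher) and 3 of 5 on day 5 (11.1% higher), when Cyp4a10, Cyp4a14 and Ehhadh were 1.22 ± 0.34, 1.22 ± 0.30 and 1.21 ± 0.19 (adjusted p = 0.0203, 0.0105 and 8.00e-05). At week 10, 1 of 6 was higher, Pdk4 (2.63 ± 0.46, adjusted p = 0.000299), and 1 was lower (all genes, 7.27% and 3.88%). At month 10, 3 of 6 were lower (all genes, 2.99%), Cyp4a14 by the most (-1.67 ± 0.37, 0.00475). In WT livers the list lay on the other side on days 2 and 5, at a median of -0.55 on each against 0.32 and 1.21 in Mgmt-/- livers. None of 5 was higher there, and 2 were lower on day 2 (all genes, 2.91% lower) and 1 on day 5 (1.39%). The difference between the genotypes in this list was not tested.

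Transcripts of particular cells and zones moved with these changes. In bulk liver, fewer cells of a type and less RNA per cell cannot be told apart. The markers of hepatocytes around the central vein, where NDMA is activated by Cyp2e1, were lower in all of those tested in Mgmt-/- livers on days 1, 2 and 5 (5 of 5, 4 of 4 and 4 of 4; all genes, 8.64%, 7.5% and 6.71% lower) and in 4 of 4 in WT livers at each of these times (4.19%, 2.91% and 1.39%). In Mgmt-/- livers 3 of 4 were still lower at week 10 (Cyp2e1, Glul and Oat; median -0.98; all genes, 3.88%) and 3 of 6 at month 10 (median -0.44; 2.99%), and none was called in WT livers at those times. Their summed level in Mgmt-/- livers on day 1 was 317 to 2501 normalized counts after NDMA (median 503) and 3767 to 10457 after saline (median 6918), and Cyp2e1 was the most abundant. General hepatocyte markers of Mgmt-/- livers were lower in 3 of 5 on days 1 and 2 and 1 of 5 on day 5 and at week 10, with a median sum of 196700 against 302750 on day 1 and Alb as the most abundant. Periportal markers were higher in 1 and lower in 1 of 6 on day 1 (all genes, 9.06% and 8.64%) and were not called on days 2 and 5 or at week 10. At month 10, 1 of 5 general hepatocyte markers and 1 of 6 periportal markers were higher and none lower (all genes, 4.75% and 2.99%). In WT livers 2 of 6 periportal markers were higher on day 1 (all genes, 5.01% higher). On day 2, 1 of 6 periportal and 1 of 5 general hepatocyte markers were lower in WT livers (all genes, 2.91% lower).

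Other cell types are given for Mgmt-/- livers, where all genes were higher and lower in 9.06% and 8.64% on day 1, 12.4% and 7.5% on day 2, 11.1% and 6.71% on day 5, and 7.27% and 3.88% at week 10. Macrophage markers were higher in 2 and lower in 3 of 8 on day 1, and higher in 5 of 8 on days 2 and 5 and in 4 of 8 at week 10 and 2 of 8 at month 10 (all genes at month 10, 4.75%), with a median sum of 2343 against 1066 on day 2 and Lyz2 as the most abundant. Neutrophil markers were lower in 4 of 5 tested on day 1, 3 of 5 on day 2 and 4 of 5 on day 5. At week 10 they went the other way, with 2 of 5 higher and none lower (median 1.37). Of the stellate cell markers 1 of 6 was higher and 4 were lower on day 1, 1 and 3 on day 2, and 1 and 1 on day 5. The 1 that rose was Acta2, a gene of activated stellate cells and smooth muscle. At week 10 the list had turned, with 4 of 6 higher and none lower (median 2.00), among them the collagens Col1a1, Col1a2 and Col3a1, and at month 10 3 of 6 were higher (all genes, 4.75%). Of endothelial markers 0 of 4 were higher and 2 lower on day 1, and 1 higher and 1 lower on each of days 2 and 5. Of T cell markers 1 of 2 tested was higher on day 1 and 2 of 2 on days 2 and 5 (Cd3d, 2.98 ± 0.40 on day 5), and neither was called at week 10. In WT livers on day 1, macrophage markers were higher in 4 and lower in 1 of 8, stellate cell markers higher in 1 and lower in 3 of 6, T cell markers higher in 1 of 2 and endothelial markers lower in 1 of 4 (all genes, 5.01% higher and 4.19% lower). On day 2, macrophage markers were higher in 2 and lower in 2 of 8, stellate cell markers higher in 1 and lower in 1 of 6 and T cell markers higher in 1 of 2 (3.33% and 2.91%). On day 5, 2 of 8 macrophage markers and 2 of 2 T cell markers were higher and 1 of 6 stellate cell markers was lower (2.22% and 1.39%). No neutrophil marker was called at any time in WT livers, and none of these lists at week 10 or month 10. The 1 cholangiocyte marker tested was not called. The part of these cells in the changes of the 10 genes was not tested. For kidney, where Acmsd is also abundant, the defining markers were at or near 0: the sum of 7 had a median of 0.179 normalized counts in Mgmt-/- NDMA livers of day 1 and 4.54 in saline livers, none of the 7 passed the filter, and Kap, Umod and Slc12a1 were at 0 in all 12 of those NDMA livers.

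With age, in saline livers, 6 of the 10 genes were called against day 1 at week 10 in each genotype and 4 at month 10. That order turned with all libraries scaled to equal totals, at 5 in WT and 6 in Mgmt-/- livers at week 10 and 7 in both at month 10, and with the 2 libraries of high Kap kept Mgmt-/- livers had 3 at each time. With sex and batch as terms, 6 of the 10 genes were higher and none lower in Mgmt-/- livers at week 10 (all genes, 7.35% higher and 9.44% lower). In WT livers it was 5 higher and 1 lower (4.01% and 5.47%). The median log2 change of the 10 was 1.02 in Mgmt-/- and 1.10 in WT livers, and that of all genes -0.11 and -0.14.

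Tdo2 had 954, 1369 and 1851 normalized counts (lowest, median, highest) on day 1 and 1859, 3361 and 4860 at week 10 in Mgmt-/- saline livers, with no overlap. Its log2 change was 1.29 ± 0.19 (adjusted p = 3.03e-07), and 1.24 ± 0.34 in WT livers (0.00903). Nnmt went from 21.7, 129 and 331 to 338, 1216 and 2420 in Mgmt-/- livers (2.49 ± 0.45, adjusted p = 5.81e-05), and changed by 3.02 ± 0.99 in WT livers (0.0422), a call lost with edgeR (2.80, adjusted p = 0.0598) and with equal totals (2.86, 0.0519). Haao rose by 1.10 ± 0.23 and 1.23 ± 0.28 (adjusted p = 0.000279 and 0.00156), Kmo by 1.00 ± 0.18 and 0.97 ± 0.26 (1.64e-05 and 0.00907) and Kynu by 0.92 ± 0.19 and 1.30 ± 0.29 (0.000299 and 0.00138), each in Mgmt-/- and then WT livers. Ido2 rose in Mgmt-/- livers (1.04 ± 0.30, adjusted p = 0.0102), and Nampt was lower in WT livers (-1.04 ± 0.35, 0.0475), a call lost with edgeR (-0.97, adjusted p = 0.071) and with time alone (-0.26, 0.302). With the 2 libraries of high Kap kept, Tdo2, Ido2 and Haao lost the call in Mgmt-/- livers, with the same changes and larger errors, and Kmo lost it there with time alone (0.48). Time alone also brought calls of Ido2 as higher in WT livers (1.35, adjusted p = 4.06e-06) and of Afmid as lower in Mgmt-/- livers (-0.61, 0.0165). Nampt was called higher in Mgmt-/- livers with time alone (0.64, adjusted p = 0.0323). The WT libraries of days 2 and 5 and week 10 shared no batch with those of day 1, and no WT change within a batch can be given for them. With batch as a term, these WT changes are joined to day 1 only through the libraries of month 10. The batch that month 10 shares with day 1 holds 3 WT saline libraries of month 10 and 4 of day 1. The Mgmt-/- changes of week 10 within the 1 batch that holds both ages were 1.29 for Tdo2 and 2.49 for Nnmt, from 8 and 4 libraries.

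On days 2 and 5 the WT calls depended on the batch term. With it, none of the 10 was called on day 2 in WT (all genes, 0.707% in either direction) or Mgmt-/- livers (0.0405%), or on day 5 in WT livers (0.431%). In each of these 3 comparisons 1 gene had an unadjusted p under 0.05 in limma, and edgeR called none. With time alone, Tdo2 (0.94 ± 0.17, adjusted p = 0.000112), Kynu and Nnmt were higher in WT livers on day 2, and Tdo2 (1.17 ± 0.18, 2.63e-06) and Nnmt on day 5. In Mgmt-/- livers on day 5, 1 gene was higher and none lower (2.21% and 3.02%), which was Nnmt (1.98 ± 0.39), and edgeR added Haao (0.72, adjusted p = 0.0237). With the 2 libraries of high Kap kept, none was called there and Nnmt was 0.63 ± 0.64.

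At month 10 many of all genes tested differed from day 1, with 26.6% higher and 24.5% lower in Mgmt-/- livers and 27.7% and 21.1% in WT. Of the 10 genes 3 were higher and 1 lower in Mgmt-/- livers, and 4 higher and none lower in WT livers. In WT livers edgeR called only Ido2 (1.22, adjusted p = 0.00427), with Haao and Qprt short of the fold at 0.57 and 0.56 and Kmo at 0.53 short of both limits (adjusted p = 0.0508). With time alone Kmo (0.55) and Qprt (0.41) lost the call there, as did Kmo in Mgmt-/- livers (0.53). Tdo2 (0.77, adjusted p = 2.08e-05) and Nnmt (2.25, 2.18e-05) gained it in WT livers with time alone. With all libraries scaled to equal totals it was 7 higher and none lower in both, while the median of all genes went from 0.12 to 0.35 in Mgmt-/- and from 0.27 to 0.52 in WT livers. Ido2 rose in both, by 1.45 ± 0.28 and 1.51 ± 0.40 (adjusted p = 2.46e-05 and 0.00155), as did Kmo, by 1.06 ± 0.17 and 0.75 ± 0.22 (4.27e-07 and 0.00324). Nnmt rose in Mgmt-/- livers (1.78 ± 0.42, 0.000558) and Haao and Qprt in WT livers (0.85 ± 0.23 and 0.78 ± 0.23, 0.00187 and 0.00432). Nnmt was not called in WT livers with sex and batch as terms. It was called there within the batch shared with day 1 (1.71, adjusted p = 0.0012) and with equal totals (1.93, 0.0428). Afmid was lower in Mgmt-/- livers (-0.69 ± 0.25, 0.0174), a call lost with equal totals (-0.45), within the 1 batch that holds both ages (-0.67, adjusted p = 0.0618) and with the 2 libraries of high Kap kept (-0.69, 0.102). Tdo2 was 1366, 1703 and 2708 normalized counts in Mgmt-/- saline livers there, with 0.49 ± 0.18 against day 1 (adjusted p = 0.0165, short of the fold). Its median was below that of week 10 (3361), with overlapping ranges, and these 2 ages were not compared by a test.

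Acmsd was called at no age by limma with sex and batch as terms, and was called under some alternatives. Its means in saline Mgmt-/- livers were, from lowest to highest, 14.6 ± 8.40 on day 1, 19.3 ± 11.0 at month 10, 21.8 ± 8.89 on day 2, 22.4 ± 9.26 on day 5 and 27.1 ± 21.6 at week 10, and each SD was larger than the step to the next mean. In WT livers they were 13.2 ± 8.55 on day 1, 18.3 ± 8.75 at month 10, 22.7 ± 8.15 on day 2, 25.2 ± 11.4 at week 10 and 26.1 ± 13.0 on day 5, and the same held. The largest change of age, 1.10 ± 0.50 in Mgmt-/- livers at week 10 (adjusted p = 0.127) and 1.53 ± 0.88 in WT livers (0.32), did not pass the test. It passed in Mgmt-/- livers with edgeR (1.79, adjusted p = 0.0232) and in WT livers with time alone (1.06 ± 0.40, 0.0273), and with equal totals Acmsd was also called in Mgmt-/- livers at month 10 (1.19 ± 0.47, 0.0302).

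**Figure D5:**
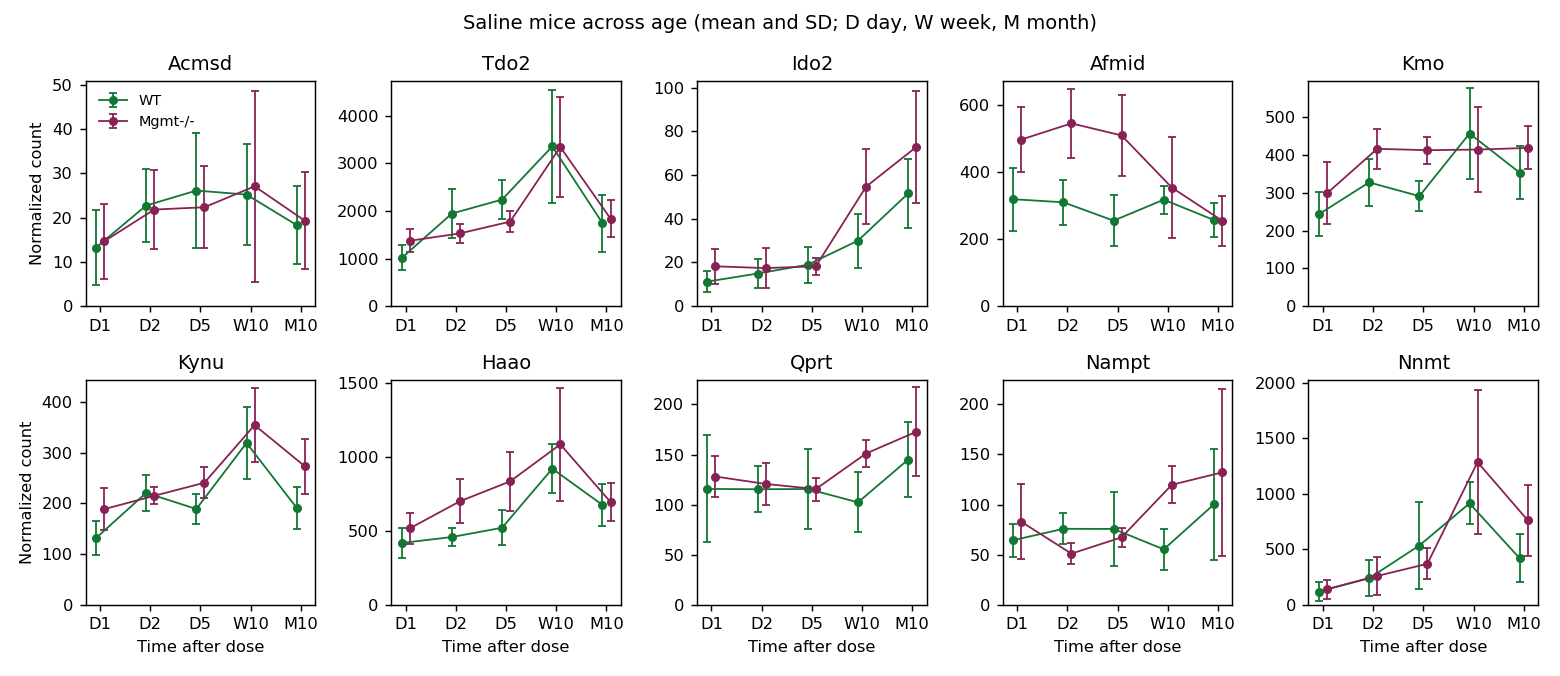
Normalized counts of the 10 genes in saline livers at each time after the second dose, by genotype; points are group means and bars are SD. Tdo2, Kynu, Haao and Nnmt reach their highest mean at week 10 in both genotypes.

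None of the 10 genes was called between males and females, with treatment in the model, where every batch held both sexes: WT livers of day 1 (all genes, 0.0332%) and Mgmt-/- livers of day 1 (0.109%), day 2 (0.0739%), day 5 (0.0537%), week 10 (1.29%) and month 10 (19.6%). In limma, 0, 0, 1, 2, 1 and 5 of the 10 had an unadjusted p under 0.05 in these, and edgeR called none. At month 10 Tdo2 was higher in Mgmt-/- males, at a mean of 2120 against 1533 normalized counts (log2 0.49 ± 0.15, adjusted p = 0.0147, short of the fold), and Kynu at 281 against 224 (0.36 ± 0.13, 0.0472). The response to NDMA was not called as different between the sexes for any of the 9 genes other than Acmsd. All genes gave 0% in WT livers on day 1 and month 10 and in Mgmt-/- livers on days 1, 2 and 5, 0.114% at week 10 and 0.338% at month 10. In limma 0, 0, 2, 0, 1, 0 and 2 of these 9 reached an unadjusted p under 0.05.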

How the data were processed

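RNA of 214 mouse livers was labelled in the series, of which 213 had values here. A Mgmt-/- saline library of month 10 was not analysed here, and 2 Mgmt-/- saline libraries of day 5 with kidney transcripts entered only an alternative, which left 117 WT and 94 Mgmt-/- libraries. The authors sequenced 3′ ends of transcripts, and used STAR for alignment to GRCm38 and ESAT for the counts per gene. The deposited values are a signal: each count was divided by the size factor that DESeq2 gave its library, and the authors normalized WT and Mgmt-/- apart. Tool versions and the annotation are not given in the sources used here. In all 213 columns the values were whole multiples of 1 step (100% within 0.01 of a whole read), so reads were recovered, and in 4 columns the step was within 1.2% of 1. Groups, sex and batch came from the labels, which give the batch as a code. The 10 genes, the lists of other genes and the tests were chosen with earlier results of these data known.

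NDMA was compared with saline, and saline ages with day 1, with limma 3.58.1 (trend and robust) in R 4.3.3 on log2(value + 1), which understates changes of low genes, with sex and batch as terms where they could be fitted. Genes needed a mean of 5 over the libraries of a fit, and p-values, two-sided, were adjusted over all of these (Benjamini-Hochberg). All fold changes are on that scale unless named otherwise. The difference in response between genotypes was fitted with edgeR 4.0.16 (quasi-likelihood, TMM) on recovered reads. As alternatives, edgeR and DESeq2 1.42.0 on reads, other pseudocounts (0.5 and 5), filters (a mean of 20, or none) and scaling, fewer terms, and other sets of libraries were tried. The scripts were tested on simulated counts. Other genes named are those called in lists of the pathway's neighbours, targets and cell markers, and the 5 genes whose NDMA changes were nearest to those of Acmsd. Some called genes of these lists are not reported here by name. Libraries of a group are separate mice by their labels. Tables were made with Python 3.11.15.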

Additional observations from a re-analysis of the deposited data

Results flagged for a closer look

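In groups of 4 to 10 libraries, 16 of 130 gene and group combinations held a library far from the rest of its group (Dixon's test, which flags about 5% by chance). The genes share the same libraries, so the combinations are not independent and their count cannot be compared with that 5%. Among the WT libraries under 300000 reads, that of day 2 had Kynu at 63.1 and Nampt at 31.6 normalized counts, the lowest of its NDMA group, and Haao at 684, the highest. That of day 5 had Ido2 at 0, Afmid at 615 and Haao at 812. That of week 10 had Ido2 at 0, Afmid at 883 and Haao at 1903. The part of depth in these 9 values was not tested.

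Of the other 7, Acmsd was at 0 in a WT saline liver of month 10, where the others had 11.3 to 28.0, and at 41.0 in a Mgmt-/- saline liver of day 5, where the others had 16.2 to 20.5. Tdo2 was 3267 in a WT saline liver of month 10. Afmid was 178 and Kynu 143 in 2 WT saline livers of day 2, each the lowest there. Kmo was 206 in a Mgmt-/- NDMA liver of week 10, and Nnmt 609 in a WT NDMA liver of week 10, also the lowest.

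The NDMA response differed between Mgmt-/- and WT livers by the test of the difference itself (edgeR, adjusted p under 0.05). For Afmid the log2 difference was -1.08 at day 1, -0.89 at day 2 and -1.18 at day 5. It was -0.86 for Haao at day 2, 0.85 for Tdo2 at day 5 and 0.85 for Kmo at day 5. At days 2 and 5 genotype and batch cannot be told apart in these differences.

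In libraries or genes outside the comparisons, Acmsd was 164 and 118 normalized counts in the 2 Mgmt-/- saline libraries with kidney transcripts, above every other saline library of that genotype, and 2900009J06Rik, on the strand opposite Acmsd, had a mean of 19.7 in Mgmt-/- NDMA livers of day 1 against 3.54 in saline livers.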

How the results depend on the processing

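The NDMA changes were stable for most genes: of 894 values under alternatives 848 kept their direction, their side of the threshold and, where not tested, their size, 8 lost the call, 2 gained it and 1 reversed. The other 35 were genes not called either way that changed sign, or Acmsd values that moved by more than 1 SE. Acmsd lay above 0 in 90 of 90; it fell to 1.28 from 1.95 in Mgmt-/- livers of day 5 with the 2 kidney libraries kept, and to 1.54 with edgeR and 1.61 with DESeq2 from 2.08 at week 10. In Mgmt-/- livers of day 5 the count of 5 genes called was 3 with edgeR and 3 with DESeq2, which lost Kmo and Nampt by their fold, and 1 with the 2 kidney libraries kept, where Haao went to 0.0339. Nampt also lost the call there with a pseudocount of 5 (0.576). With all totals made equal, the median change of all genes in Mgmt-/- livers went from 0.02 to 0.20 on day 1, 0.03 to 0.19 on day 2, 0.03 to 0.17 on day 5 and 0.04 to 0.24 at week 10, and Kmo at day 2 (0.585) and Nnmt at week 10 (0.85, adjusted p = 0.025) were gained in Mgmt-/- livers. On recovered reads edgeR called 868, 945, 629, 0 and 0 genes of the whole table over the 5 times in WT livers, against 830, 534, 312, 2 and 0 by limma, and 1805, 1866, 1640, 1251 and 775 against 1780, 1880, 1661, 1080 and 779 in Mgmt-/- livers. The counts of differences between genotypes stayed within 1.5 times under 14 of 14 alternatives, with Tdo2 at day 5 lost by limma and Kmo at day 2 gained (0.52) with library size alone.

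The age counts depended on the settings more, and 38 of 49 stayed within 1.5 times. In WT livers, time alone gave 3 genes at day 2 and 2 at day 5 in place of 0, and at month 10 equal totals gave 7 and edgeR 1 in place of 4. In Mgmt-/- livers of day 5, time alone, the shared batch alone, a mean of 20 and edgeR each gave 2 in place of 1, and the kidney libraries kept gave 0. These libraries also gave 3 in place of 6 at week 10, and equal totals gave 7 in place of 4 at month 10. Nampt at week 10 was 0.64 with time alone in place of -0.07. The cause was not tested. The shared batch alone could not be fitted for WT livers at days 2 and 5 and week 10. Leaving out the NDMA liver of highest Acmsd, the saline liver at 0 Acmsd, the mice of unmatched sex or the libraries of few reads changed no count of calls. The first 2 of these were chosen after seeing the data. No paired analysis was possible because the labels number the mice singly and pair none.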

Other observations

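Of the neighbouring lists, 1 gene is described here for its change with age in saline livers. The other genes of these lists are not counted for age here, and this gene does not stand for them. All genes were higher in 7.35% at week 10 and 26.6% at month 10 in Mgmt-/- livers, and in 4.01% and 27.7% in WT livers. Aox1, an aldehyde oxidase, was higher at week 10 and month 10 than at day 1 in both genotypes, by 3.18 and 3.45 on the log2 scale in Mgmt-/- livers and by 2.60 and 3.40 in WT livers (limma, each called).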
